A study of Mus musculus with 12 samples.

Results

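The 8 genes through which the beta cell takes up glucose, handles its carbon and turns it into electrical activity were followed in islets of NOD and NOD.B10 mice. They are Slc2a2, G6pc2, Pcx, Abcc8, Kcnj11, Glp1r, Gipr and Ffar1, and were chosen by name, with every non-control probe whose accession names them. These 8 genes, of 17016 with a symbol on the array, have 12 probes with 1 spot each. Islet sections were taken by laser capture from frozen pancreas of 6 NOD mice, the strain that develops autoimmune diabetes, and of 6 NOD.B10 mice, which share the NOD background, carry another MHC haplotype and served as healthy controls. All mice were females aged 12 weeks per the labels, which name no transgene, treatment or other agent. Each array held the amplified, Cy5-labelled islet RNA of 1 mouse against a Cy3-labelled mouse universal RNA, with no dye swap. A capture holds all cells inside the dissected outline, so in these bulk samples fewer beta cells and less RNA per beta cell cannot be told apart.

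Glucose enters the rodent beta cell mainly through GLUT2, the product of Slc2a2, and is phosphorylated before it is used. Metabolism raises the ratio of ATP to ADP, which closes the KATP channel, depolarises the membrane and admits the calcium that triggers insulin release. G6pc2 takes part in the reverse step, from glucose-6-phosphate back to glucose, Pcx refills the mitochondrial cycle from pyruvate, Abcc8 and Kcnj11 form the KATP channel, and Glp1r, Gipr and Ffar1 are receptors that amplify secretion. Beta cell genes are commonly read by transcription factors that bind E-boxes (CANNTG) or the homeodomain core TAAT.

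The 250 bases before the RefSeq transcription start of the transporter and enzyme genes measured here are shown (GRCm38.p6, plus strand, 5′ to 3′). Of these 3 genes, 2 were called lower in NOD in the loess ratios given below, though calls changed with the processing. Capitals mark CANNTG, and TAAT on either strand (ATTA as read here). Slc2a2 lies at chr3:28697653-28697902, G6pc2 at chr2:69210823-69211072 and Pcx at chr19:4510222-4510471 for the stretch shown.
Slc2a2: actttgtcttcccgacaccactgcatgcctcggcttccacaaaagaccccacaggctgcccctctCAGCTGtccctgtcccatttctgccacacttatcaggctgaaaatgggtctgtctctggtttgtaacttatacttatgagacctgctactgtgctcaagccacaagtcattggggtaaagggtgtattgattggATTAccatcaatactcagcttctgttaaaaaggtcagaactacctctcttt
G6pc2: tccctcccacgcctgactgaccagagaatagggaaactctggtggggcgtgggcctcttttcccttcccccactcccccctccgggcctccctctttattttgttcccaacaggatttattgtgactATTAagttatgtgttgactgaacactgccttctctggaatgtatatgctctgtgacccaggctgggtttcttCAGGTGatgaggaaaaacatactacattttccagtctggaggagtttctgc
Pcx: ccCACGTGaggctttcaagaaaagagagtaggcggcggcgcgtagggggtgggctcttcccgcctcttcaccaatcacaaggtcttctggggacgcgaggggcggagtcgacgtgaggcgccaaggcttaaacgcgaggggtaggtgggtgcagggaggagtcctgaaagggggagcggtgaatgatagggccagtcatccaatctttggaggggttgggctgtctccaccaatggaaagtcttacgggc
The windows of Slc2a2 and G6pc2 hold 1 E-box and 1 TAAT each, and that of Pcx holds 1 E-box and 0 TAAT, with 0 bases shared between the motifs. Of 32851 windows of this length, 66.2% hold CANNTG and 54.9% hold TAAT on either strand, so these matches are common. The table had windows for 5 of the 8 genes, 7 in all. A further start of Pcx has 2 E-boxes and 1 TAAT, and a further start of G6pc2 has 4 and 3.

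Islet signal was low on all arrays and lower in NOD.B10. Cy5 was well above background, by the scanner's own mark, on 10.7 to 17.3% of spots in NOD and on 3.96 to 7.88% in NOD.B10 (exact 2-sided permutation p = 0.00216, the smallest possible with 6 against 6). Reference signal was so on 46.7 to 51.9% and 47.8 to 54.4% of spots (exact permutation p = 0.781). The arrays lay on 4 slides: slide 1 held 2 NOD mice, slide 4 held 2 NOD.B10 mice, and slides 2 and 3 held 2 of each strain. By the file headers slide 4 was scanned on another day than the other slides, so that day held NOD.B10 mice alone. Labels and signals showed the captures to contain endocrine tissue, as Ins1, Ins2, Iapp and Gcg were well above background on all 12 arrays. Of 22 beta cell markers 9 were well above background on no array, Pdx1, Mafa, Slc30a8 and Ucn3 among them.

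Only 4 of the 8 genes could be measured. One probe each of Slc2a2, G6pc2, Pcx and Abcc8 reached the minimum for a test, a Cy5 signal well above background in 4 or more mice of the 12. The probes of Kcnj11, Glp1r and Ffar1, the second probes of Slc2a2 and Abcc8, and the first and second probes of Gipr were well above background on 0 arrays, 7 probes in all. The probe that passed depends on the brightness of the islet signal, so the 4 genes do not stand for the 8.

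**Figure D1:**
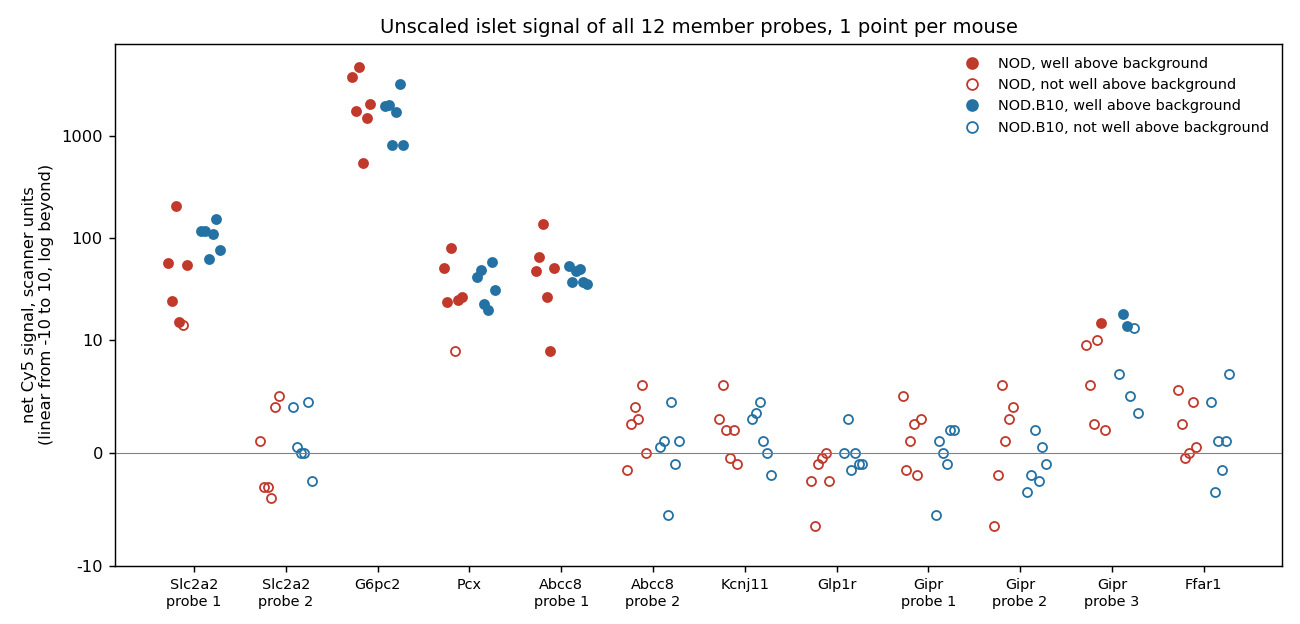
Net Cy5 signal (median spot signal less local background, scanner units, on an axis linear near 0 and logarithmic further out) of the 12 probes, 1 point per mouse, red for NOD and blue for NOD.B10, filled where well above background. The measured probes of Slc2a2, G6pc2, Pcx and Abcc8 are filled in at least 5 mice of each strain, and the 7 unfilled columns lie around 0.

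Slc2a2, the glucose transporter gene, was lower in NOD. Its net Cy5 signal, the islet signal less local background with no scaling, was 56, 24, 206.5, 15, 14 and 54 in NOD replicates 1 to 6. It was 116.5, 117, 61.5, 108, 151.5 and 75.5 in NOD.B10. Of the 6 NOD mice 5 lay below every NOD.B10 mouse although their arrays had more bright spots, and NOD replicate 3 lay above all of them. NOD replicate 5 was the 1 array on which this probe was not well above background. The reference signal of the probe was much brighter, 3499 to 6515 in all mice, so Cy5 was 0.215 to 3.71% of Cy3 in NOD (median 0.776%) and 1.21 to 2.69% in NOD.B10 (median 2.30%).

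The log2 ratio of Cy5 to Cy3, after background correction and loess, was used to put arrays of unlike brightness on a common scale. That such a scale was reached is not assured. Over all genes tested, loess gave 734 higher and 717 lower, and median centring gave 1982 and 0. For Slc2a2 the loess ratio was -0.96, -1.81, 1.68, -1.39, -0.99 and -0.73 in NOD and 2.00, 2.02, 1.22, 2.08, 2.21 and 1.75 in NOD.B10. The strains overlapped through NOD replicate 3 alone, and not at all in the authors' processed ratios, where NOD reached 0.979 at most and NOD.B10 was at least 1.67. The means were -0.70 ± 1.23 and 1.88 ± 0.36 (SD, n = 6 each). The difference, NOD minus NOD.B10, was -2.58 ± 0.459 (SE, 95% interval -3.57 to -1.59), a 5.98-fold lower ratio (limma, Benjamini-Hochberg adjusted p = 0.000985). By size this was the fall with rank 17 among 3920 genes tested. Without NOD replicate 3 the difference was -3.06 (limma adjusted p = 2.18e-06, against 2.18e-06 to 0.803 over all 30 alternative settings).

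The unscaled signal of Slc2a2 was lower too. Its log2 difference in net Cy5 was -1.39 before any scaling (limma adjusted p = 0.0268), and the gene was 1 of 5 called lower, with 2074 called higher, among the 2642 genes that could be compared in this way. This comparison was added after the data were seen. Slide 2 alone gave -1.89 (limma adjusted p = 0.392) and slide 3 alone -2.84 (limma adjusted p = 0.0714), with 2 mice of each strain on either, and slide as a fixed term gave -2.37 (limma adjusted p = 0.0135). With the share of bright spots as a covariate, whose ranges do not overlap between the strains, the value was -1.53 (limma adjusted p = 0.803).

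G6pc2, the islet glucose-6-phosphatase subunit that returns glucose-6-phosphate to glucose, was well above background in all 12 mice. Net Cy5 was 3843.5, 1774, 4775.5, 543, 1493 and 2048 in NOD and 1954, 2004, 823, 1720.5, 3219 and 818 in NOD.B10. The reference RNA barely held it, with net Cy3 of 24 to 50. Its log2 ratio was 9.74, 7.86, 10.82, 6.11, 8.38 and 8.74 in NOD and 9.68, 9.68, 7.64, 9.42, 10.71 and 7.71 in NOD.B10. Both strains spread widely and overlapped over most of their range. The difference was -0.53 ± 0.720 (SE, n = 6 per strain, 95% interval -2.09 to 1.02, limma adjusted p = 0.599). In the authors' processed ratios, where NOD spanned 9.29 to 11.9 and NOD.B10 12.5 to 12.9, the strains did not overlap. There the difference was -1.78 (limma adjusted p = 0.00278, against 0.00278 to 0.975 over all alternatives). Relative to the median shift of all genes it was -2.26, a value not tested itself. The call for G6pc2 thus depends on the processing.

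Pcx, pyruvate carboxylase, was lower in NOD relative to the brightness of the arrays, while its mean unscaled signal was much alike in both strains. Net Cy5 was 51, 23.5, 80, 9, 24.5 and 26 in NOD (mean 35.7) and 41.5, 48, 22.5, 19.5, 58 and 31 in NOD.B10 (mean 36.8). The NOD values spread more widely, and without scaling the NOD median of 25.3 lay below the NOD.B10 median of 36.3. It was not well above background in NOD replicate 4. The log2 ratio was -0.86, -1.85, 0.35, -1.41, -0.57 and -1.15 in NOD and 0.62, 0.76, 0.19, 0.17, 0.80 and 0.70 in NOD.B10. Again NOD replicate 3 alone reached into the NOD.B10 range. The difference was -1.45 ± 0.296 (SE, n = 6 per strain, 95% interval -2.09 to -0.82), a 2.74-fold lower ratio (limma adjusted p = 0.00223).

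The call for Pcx was lost in several settings. Slide 2 alone gave -0.93 (limma adjusted p = 0.48), and slide 3 alone -1.61 (0.139), while slide as a fixed term kept it at -1.27 (0.0384). Before any scaling the log2 difference in net Cy5 was -0.25 (limma adjusted p = 0.638). Over all alternatives the adjusted p ran from 0.000128 to 0.915.

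Abcc8, the sulfonylurea receptor subunit of the KATP channel, had means of 1.62 in NOD and 1.57 in NOD.B10 on the log2 ratio scale, with a wider spread in NOD. Its net Cy5 was 47.5, 65, 138, 26, 9 and 50.5 in NOD and 53, 37, 47.5, 49, 37 and 35 in NOD.B10, with a reference signal of 23.5 to 45. The log2 ratio was 1.59, 1.95, 3.31, 0.97, 0.25 and 1.66 in NOD and 1.85, 1.39, 1.72, 1.77, 1.37 and 1.34 in NOD.B10. All NOD.B10 mice lay within the NOD range. The SD was 1.03 in NOD and 0.23 in NOD.B10. The difference of 0.05 ± 0.379 (SE, n = 6 per strain, 95% interval -0.77 to 0.87) did not pass (limma adjusted p = 0.936), and the interval allows a change of either sign. In Cy5 alone, scaled to a common distribution across arrays, the value turned to -0.80 (limma adjusted p = 0.00917, against 0.00917 to 0.999 over the alternatives other than marker centring). Without NOD replicate 3 it was -0.29 and without NOD replicate 2 -0.02, and neither passed.

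**Figure D2:**
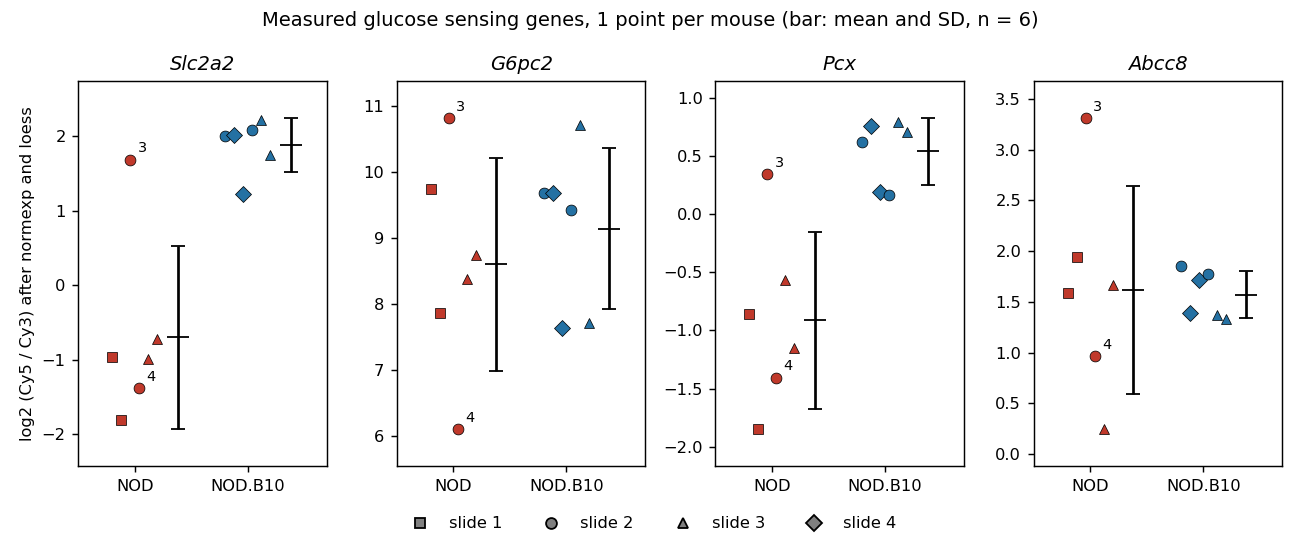
Log2 ratio of Cy5 to Cy3 after normexp and loess for the 4 measured genes, 1 point per mouse, with marker shape for slide and bars for mean and SD (n = 6). For Slc2a2 and Pcx only NOD replicate 3, labelled 3, lies among the NOD.B10 mice, while G6pc2 and Abcc8 overlap throughout.

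Both genes called, of the 4 tested, were lower, beside 37% of all genes tested that were called in either direction, 18.7% higher and 18.3% lower. The median difference of the 4 was -0.99, against -0.0079 over all genes tested. Slc2a2 and Pcx are genes with islet signal far under reference signal, and among the 2604 tested genes with Cy5 between 0.2 and 3% of Cy3, 22.1% were called lower and 8.68% higher. Of the 717 genes called lower, 48 (6.69%) had a lower mean unscaled signal in NOD. Slc2a2 was among them, and so, by the small margin given above, was Pcx. In these loess ratios the strains overlapped for each of the 4 genes, while they did not for 17.1% of all genes tested (7.6% with NOD lower and 9.46% with NOD higher).

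The remaining genes gave no usable level. Kcnj11, the pore subunit of the KATP channel, had net Cy5 between -2 and 6 in all mice. Glp1r, the receptor of the incretin GLP-1, lay between -6.5 and 3, and Ffar1, a receptor of long-chain fatty acids, between -3.5 and 7. Gipr, the receptor of the incretin GIP, has 3 probes, and the third was well above background in NOD replicate 5 and NOD.B10 replicates 2 and 3, at net Cy5 of 14.5, 18 and 13.5. The latter pair make up slide 4, where the reference signal of this probe was 107 and 121.5 against 7 to 18.5 on the other arrays. No strain difference is given for these 4 genes, and their signals do not show that the transcripts were absent.

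Differences between members within an array do not depend on its overall scale as long as both genes respond to it alike. This was not assured, as loess depends on intensity. Net Cy3 was 2971 to 6515 for Slc2a2 and Pcx but 23.5 to 50 for G6pc2 and Abcc8. With median centring the strain difference, before the median shift was taken off, was -0.63 for Slc2a2 and 0.07 for Abcc8. The log2 ratio of Slc2a2 less that of Abcc8 was lower in NOD by 2.63 units (difference -2.63, exact permutation p = 0.00216, 0.0130 adjusted over the 6 gene pairs compared, n = 6 per strain). Slc2a2 fell relative to Pcx (-1.13, exact p = 0.00866, adjusted 0.0130) and relative to G6pc2 (-2.05, exact p = 0.00866, adjusted 0.0130). Pcx fell relative to Abcc8 (-1.50, exact p = 0.00866, adjusted 0.0130). The pairs of G6pc2 with Pcx (0.92, exact p = 0.197, adjusted 0.236) and with Abcc8 (-0.58, exact p = 0.422, adjusted 0.422) did not pass. In Cy5 alone Slc2a2 stayed lower relative to Pcx (-0.87, exact p = 0.00866, adjusted 0.0260) and to Abcc8 (-0.80, exact p = 0.00433, adjusted 0.0260). It did not pass there relative to G6pc2 (-0.65, exact p = 0.173, adjusted 0.346), nor did Pcx relative to Abcc8 (0.07, exact p = 0.755, adjusted 0.784). In the authors' processed ratios Slc2a2 was lower relative to G6pc2 (-2.01), Pcx (-1.62) and Abcc8 (-2.33), with adjusted exact p of 0.00649 to 0.00866. Pcx relative to Abcc8 did not pass in them (-0.71, exact p = 0.292, adjusted 0.351), nor did the pairs of G6pc2 with Pcx and Abcc8.

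Hormone genes of the islet were read on the same scale. Ins2 was lower by 3.35 (difference -3.35, limma adjusted p = 0.000632), Ins1 stood at -1.75 (0.0392), Iapp, the amylin gene, at -1.53 (0.0562) and Gcg, the glucagon gene of alpha cells, at -1.19 (0.0263). Mean unscaled signal ran the other way for Gcg, 28080 in NOD against 12412 in NOD.B10, and was 1662 against 1606 for Ins1. For Ins2 it was 12510 against 14228 and for Iapp 319 against 503.5. The Iapp mean of NOD.B10 was raised by replicates 2 and 3 on slide 4, at 1072.5 and 700. The other NOD.B10 mice had 215.5 to 455.5, within the NOD range of 114.5 to 566. Of 13 beta cell markers tested 4 were lower and 0 higher, beside 18.3% lower and 18.7% higher among all genes tested. The median of these markers was -0.15. Their summed net Cy5 was 6565 to 38504 in NOD, highest in replicate 3 and lowest in replicate 4, and 14850 to 34942 in NOD.B10. The 7 markers bright on every array (Chga, Chgb, Iapp, Ins1, Ins2, Pcsk2 and Scg3) served as an endocrine scale, although several are shared with other endocrine cells. The median of the 7 log2 ratios on each array was on average lower in NOD (log2 difference -1.66). The mean of each gene was not taken off first, so this median follows the gene of middle level. By strain means that gene was Pcsk2 in both strains, and its mean unscaled signal was higher in NOD. Values on this scale thus rest mainly on Pcsk2 and genes of like level, not on the shared change of the 7. Relative to that median Slc2a2 stood at -0.92 (exact permutation p = 0.0455), Pcx at 0.20 (exact p = 0.658), G6pc2 at 1.12 (exact p = 0.0325) and Abcc8 at 1.70 (exact p = 0.00433), with no adjustment for the 4 values compared. This test was added after the data were seen, since limma pooled the spread over all genes on this scale; its adjusted p for Slc2a2 was 0.108. On this scale Slc2a2 was the single member of the 4 that remained below 0.

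Markers of other cells moved with the strain as well. Of 13 leukocyte markers tested 12 were higher, beside 18.7% higher among all genes tested. Of these 12, 9 had 0 NOD.B10 arrays well above background, so that they entered the test through NOD alone. Summed net Cy5 of the 13 was 1739 to 13196 in NOD against 53.1 to 148 in NOD.B10. Ptprc, the leukocyte common antigen, was well above background on 6 NOD and 0 NOD.B10 arrays. Cd3e, Cd3g, Cd4, Cd79a and Itgam were well above background on 0 arrays. Of 9 acinar markers tested 6 were lower, beside 18.3% lower among all genes tested. Summed net Cy5 of the acinar markers was 361 to 4599 in NOD (median 1121). In NOD.B10 it was 302 to 12100 (median 967.5), with 12100 in replicate 5 alone. NOD replicate 3, the mouse with the highest ratio of all 4 members among NOD mice, had a leukocyte sum of 2842 and an acinar sum of 361. NOD replicate 5 had the lowest leukocyte sum of the NOD mice, 1739, with Slc2a2 at -0.99 and the lowest Abcc8 of all mice. The part of these cells in the differences of Slc2a2 and Pcx was not tested.

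**Figure D3:**
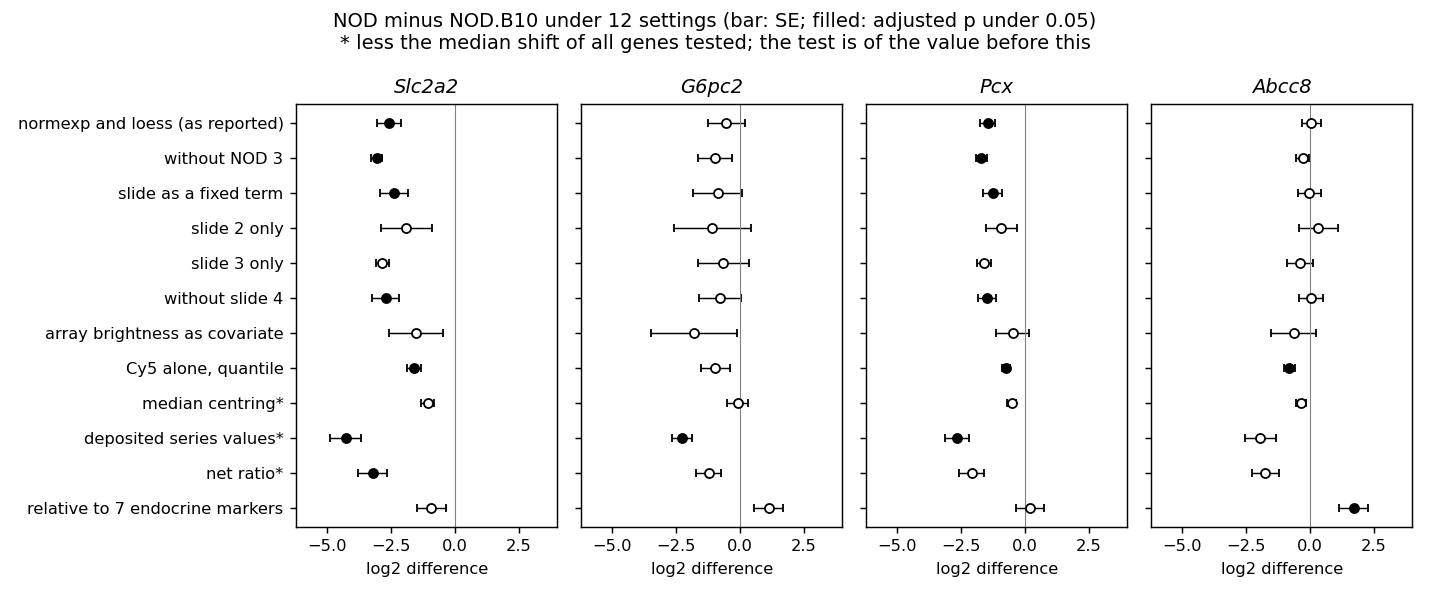
Strain difference (NOD minus NOD.B10, log2, bar for SE) of the 4 measured genes as reported and under 11 alternatives, filled where the adjusted p is under 0.05. An asterisk marks values from which the median shift of all genes was taken off, with the test made before this, and in the line for the 7 markers the fit pooled a single spread over all genes. Slc2a2 lies below 0 in every line, Pcx in every line but that relative to the median level of the 7 endocrine markers, and Abcc8 lies on both sides.

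The wider pathway was covered by 5 lists with 107 entries, 99 of them with a probe and 33 tested. Of the 33, 13 were lower (39.4%) and 1 higher, with a median of -0.37, beside 18.3% lower and 18.7% higher among all genes. Most of these falls are relative to array brightness, as 11 of the 13 had a higher unscaled mean signal in NOD. Median centring instead of loess left 0 of the 33 lower and made 15 higher. Without NOD replicate 3, 2 of the 33 were higher.

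Around glucose entry and glycolysis 2 of 8 tested genes were lower and 0 higher (median -0.37). Pgam1, a phosphoglycerate mutase, stood at -0.65 (limma adjusted p = 0.0120), and G6pc, the liver-type phosphatase, was called lower with 1 NOD.B10 array above background, so no fold is given. In pyruvate and mitochondrial coupling, the list that neighbours Pcx, 7 of 12 were lower and 1 higher (median -0.49). Mdh1, the cytosolic malate dehydrogenase, stood at -0.83 (limma adjusted p = 0.00123), and its mean unscaled signal was 93.9 in NOD and 36.3 in NOD.B10. Pdhb and Idh3a, subunits of pyruvate and isocitrate dehydrogenase, were called lower although 0 NOD.B10 arrays read them above background, so no fold is given. Cs, citrate synthase, named after its value was seen, was the higher gene at 0.75 (limma adjusted p = 0.00651).

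Of 13 other ion channel genes of beta cell excitation with a probe, 1 could be tested. Trpm5, a calcium-activated cation channel, stood at -0.37 and did not pass (limma adjusted p = 0.258). Among 6 tested receptor and cAMP genes 1 was lower, Gcgr, the glucagon receptor, for which no fold is given since it was well above background on 2 arrays of each strain (limma adjusted p = 0.000785, median of the list -0.07). Of 6 exocytosis genes 3 were lower and 0 higher (median -0.38). Syt13, a synaptotagmin, stood at -1.27 (limma adjusted p = 0.0442) and Rab3a, a vesicle GTPase, at -0.48 (limma adjusted p = 0.0477). Syt13 and Gcgr were the 2 of the 13 with a lower unscaled mean signal in NOD, 229 against 254 and 8.58 against 9.08.

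**Figure D4:**
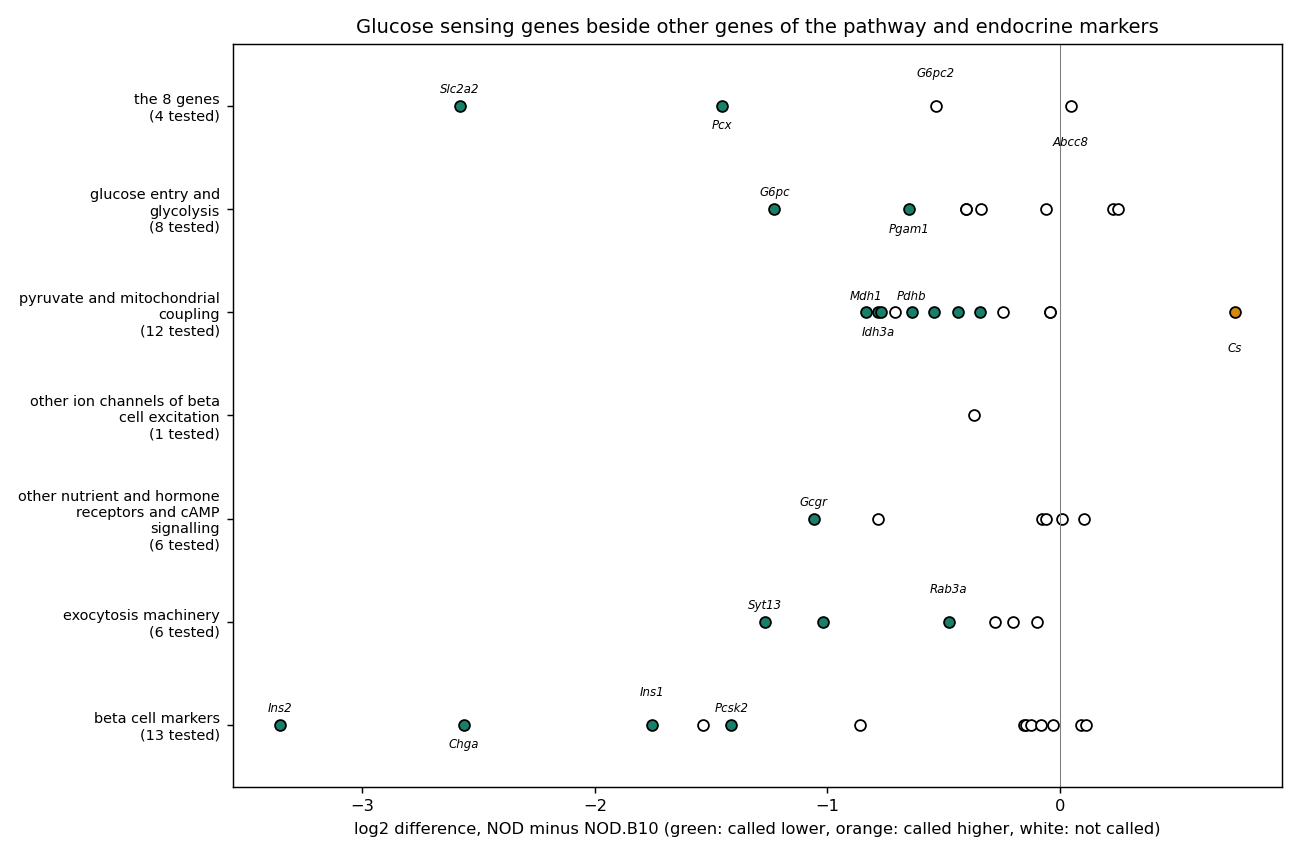
Strain difference (NOD minus NOD.B10, log2) of the tested genes by list, 1 point per gene, green where called lower, orange where called higher and white where not called, with names for some of the called genes and for the 4 members. Slc2a2 at -2.58 lies below every gene of the 5 pathway lists, and among the beta cell markers only Ins2 lies lower.

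Genes that varied most like each member from mouse to mouse were sought over the 12 arrays after the mean of each strain was taken off, as a description. All values share the reference and the brightness of the array. For Slc2a2, NOD replicate 3 lay furthest from its strain mean (1.68 against -0.70). Correlations with Slc2a2 therefore rest heavily on this 1 mouse. Slc2a2 was closest to Ptprf, Hyou1 and Sec61b (Pearson's r 0.964, 0.952 and 0.945). G6pc2 was closest to Hibadh, Lrp11 and Bex2 (0.916, 0.915 and 0.907), and Pcx to Dynll2, Apbb2 and Gcgr (0.922, 0.904 and 0.895). Abcc8 was closest to Resp18, Tmem163 and Tmem50b (0.959, 0.916 and 0.909). Between members r was 0.874 for Slc2a2 with Pcx, 0.732 for Slc2a2 with G6pc2 and 0.335 for Pcx with Abcc8, the highest, second and lowest of the 6 pairs.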

How the data were processed

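Islet RNA of 6 NOD and 6 NOD.B10 mice was measured on 2-colour arrays, 1 per mouse. Scanner intensity values (median signal and local background per spot) were deposited without normalisation; the file headers name Feature Extraction 10.5.1.1. The values of the deposited series table matched log2 of the authors' processed Cy5 over Cy3, equal within 0.01 for 100% of single-spot values compared. Background marks are those of the scanner, per the file headers. The 12 arrays have 45018 spots apiece, 1639 of them controls, 0 saturated and 160 to 250 marked as outliers.

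Background correction of median signals was by normexp (offset 50) and dye normalisation by loess, with controls at weight 0, in limma 3.58.1 under R 4.3.3. Spots of a probe were averaged without outliers where another spot remained. Accessions were matched to GRCm38.p6 symbols (24375 of 41174 probes, 17016 symbols), and the promoters are from the same RefSeq assembly. The arrays' own coordinates were not used. Probes with Cy5 well above background on at least 4 of 12 arrays were tested (5347 probes), with the brightest probe per symbol (3920 genes). Strains were compared with lmFit and eBayes and Benjamini-Hochberg adjustment over these genes at 0.05; an adjusted p given in parentheses is limma's unless it is named exact. Single values were compared with the exact 2-sided permutation test over 12 arrays. Data of the 3920 genes in this comparison were simulated with independent normal noise of equal spread in both strains. In them 100 genes were changed by log2 1 and 100 by log2 2. The limma fit recovered 86% of genes changed by log2 1. It recovered 97% of those changed by log2 2, with 2.14% false calls. These figures are for the fit alone and for equal spread, which Slc2a2 (SD 1.23 in NOD and 0.36 in NOD.B10) and Abcc8 (1.03 and 0.23) did not have. The part of background correction, dye normalisation and the filter in false calls was not tested.

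The members, pathway lists and tests were chosen with earlier results of these data known. Genes are named by rule: all members, Ins1, Ins2, Iapp, Gcg and Ptprc, up to 3 called genes per list by p (up to 2 tested genes where none is called), and the 3 genes most like each member. Some genes under this rule are left out of the text. Labels do not say whether replicates pair. Same-numbered mice of the strains correlated at r -0.145 to 0.210, over 0.1 in 3 of 6 pairs, so numbers were not taken as pairs. Precision is limited by the number of arrays and the low islet signal. Alternatives were other normalisations, filters, slides, covariates and left-out mice.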

Additional observations from a re-analysis of the deposited data

Results flagged for a closer look

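The log2 ratio of Slc2a2 in NOD replicate 3 was 1.68, far above the nearest NOD value of -0.73. The gap took 0.689 of the range of the NOD group, above Dixon's critical value of 0.625 for 6 samples. It was 1 of 24 groups examined (12 probes in either strain), and chance alone flags about 1 in 20.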

How the results depend on the processing

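Values with other scalings (processed ratios, median centring, net ratios and net Cy5) are relative to the median shift of all genes, 0.48, 0.44, 1.71 and 1.78, and their tests are of the value before this. Centring on the median level of the 7 endocrine markers shifted all genes by 1.65, and Cy5 alone by 0.094. With marker centring limma pooled a single spread over all genes, so its p-values and counts there say little. The cause of each change below was not tested. Slc2a2 was below 0 in all 30 alternatives (-4.27 to -0.92). Some of these were not separate checks of its value. The replicate block, no filter, the filter of 6 arrays and the mean over probes gave the same -2.58 from the same probe. Slc2a2 missed the threshold with median centring (-1.07), marker centring (-0.92), slide 2 (-1.89), slide 3 (-2.84) and the brightness covariate (-1.53). Pcx missed it with median centring (-0.52), slide 2 (-0.93), slide 3 (-1.61), the covariate (-0.48), net ratios (-2.08) and net Cy5 (-2.03), and turned to 0.20 with marker centring. G6pc2 passed with processed ratios (-2.26) and turned to 1.12 with marker centring. Abcc8 passed with marker centring (1.70), passed with the opposite sign with Cy5 alone and turned negative with processed ratios (-1.94), median centring (-0.36), Cy5 alone (-0.80), slide fixed (-0.034), slide 3 (-0.40), the covariate (-0.64), net ratios (-1.75), net Cy5 (-1.82) and slides 2 and 3 together (-0.034).

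Leaving out single mice gave -3.06 to -2.36 for Slc2a2, -1.71 to -1.27 for Pcx, -0.98 to -0.03 for G6pc2 and -0.29 to 0.32 for Abcc8, which turned to -0.02 without NOD replicate 2 and -0.29 without NOD replicate 3. With 1 mouse left out, 603 to 848 genes were higher and 585 to 816 lower, and 9 to 15 pathway genes lower and 1 to 2 higher.

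Of all genes, 734 higher and 717 lower became 1982 and 0 with median centring (2 lower at an unadjusted p under 0.05), 3347 and 11 with marker centring, 362 and 363 with slide fixed, 46 and 55 in slide 2, 1 and 1 in slide 3, 3 and 0 with the covariate (157 and 139 at an unadjusted p under 0.05), 2007 and 3 with net ratios, 2074 and 5 with net Cy5 and 302 and 275 in slides 2 and 3. Lower calls became 314 with processed ratios (1097 higher), 249 with Cy5 alone (879 higher) and 1451 of 17016 without the filter (700 higher). Of pathway genes, the 1 higher and 13 lower became 2 and 6 with processed ratios, 15 and 0 with median centring, 3 and 5 with Cy5 alone, 21 and 0 with marker centring, 0 and 1 in slide 2, 0 and 0 in slide 3, 0 and 0 with the covariate, 20 and 0 with net ratios and with net Cy5, and 0 and 5 in slides 2 and 3. Slide fixed left 6 lower, and the mean over probes left 0 higher. The net ratio, net Cy5 and slides 2 and 3 together were added after seeing the data.

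With 1 mouse of each strain per number, the replicate block cannot move a difference of means, only its p-value. Limma adjusted p under this block was 0.00694 for Slc2a2 (-2.58) and 0.00867 for Pcx (-1.45). It left 637 genes higher and 607 lower, and changed no call of the 4. Of the 6 NOD mice, 2 were closest to the NOD.B10 mouse of their own number. Islet signal near background limits Kcnj11, Glp1r, Gipr and Ffar1 in particular.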

Other observations

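The reference channel differed between slides for some probes, and slide 4 was also scanned on another day than the rest. Of 23258 probes with Cy3 well above background on at least 2 arrays, 1244 (5.35%) were over 2-fold brighter in Cy3 on both arrays of slide 4 than on every other array. The third Gipr probe was such a probe. The net Cy3 of the Iapp probe was 247 to 271.5 on slide 4 and 117 to 166 elsewhere. For the measured probes of Slc2a2, G6pc2, Pcx and Abcc8 the Cy3 signal on slide 4 lay within the range of the other arrays.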
